A study of Mus musculus with 24 samples.

Results

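The comparison described here set 3 cultures of Mll1-deleted neural stem cells against 3 wild-type cultures, both after 1 day in differentiation medium. Its 6 arrays were taken by their labels for genotype and time point out of 24 arrays in all, which cover both genotypes on days 0, 1, 2 and 4. The Mll1-deleted cultures came from mice 489, 814 and 858 and the wild-type cultures from mice 818, 862 and 870, so no mouse gave both genotypes and the comparison was unpaired. Per-mouse values below keep these orders. The cells were taken from the subventricular zone, a germinal layer along the lateral ventricle of the mouse forebrain. They were grown in serum with EGF and FGF through several passages, and were then moved to a serum-free medium without either growth factor. RNA of whole cultures was hybridised to Affymetrix arrays. The labels name neither a Cre driver nor the deleted exons, and they give no strain, age or sex for the mice. The 6 cultures compared came from 6 mice. The spread behind the p-values was estimated over all 24 arrays, 4 from each mouse, so it pools the spread between mice with that within a mouse over the days.

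Mll1, encoded by Kmt2a, is a Trithorax-group protein that methylates lysine 4 of histone H3 and is known for keeping developmental genes active through cell division, Hox genes among them. Subventricular zone stem cells are astrocyte-like cells that give rise to neuroblasts of the olfactory bulb, most of which become GABAergic interneurons, and to some oligodendrocytes. The Dlx factors, Pax6 and the POU factors mark steps of that neurogenic path, whereas Olig2 marks the oligodendrocyte side.

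The median intensity of the 6 arrays lay between 79.1 and 84.4, and the number of arrays limits the precision. Pearson correlations across genes were 0.994 between mice 489 and 814, 0.989 between 489 and 858, and 0.984 between 814 and 858, against 0.990 to 0.994 among the wild-type mice. Mouse 858 stood apart in the called genes described below: among its genotype it lay nearest to the wild-type mean in 584 of 761 increases and 572 of 809 decreases. Xist, the RNA that coats the inactive X chromosome, read 1191, 882 and 21.5 in Mll1-deleted cultures, against 658, 1034 and 580 in wild-type cultures. Mouse 858 was far below the other 5 mice for Xist. The Y-linked genes Ddx3y, Eif2s3y, Kdm5d and Uty read at most 21.0 on any array of the series. What sets mouse 858 apart was not tested, and counts without it are given beside most, not all, gene groups below.

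Kmt2a itself had intensities of 637, 578 and 577 in Mll1-deleted cultures, against 547, 504 and 407 in wild-type cultures. The values of the Mll1-deleted mice were all above those of the wild-type mice, with a log2 difference of 0.31 ± 0.13 (SE, n = 3 mice each, adjusted p = 0.186). A second probe set, which the annotation shares between Kmt2a and Ttc36, differed by -0.10. Where the probes lie relative to the deleted part is not known here, so neither value checks the deletion. All differences below are Mll1-deleted minus wild-type on the log2 scale, with the SE from limma and n = 3 mice in each group. A gene is called where its adjusted p over 21072 genes is under 0.05.

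On day 1, 1570 genes were called, which is 7.45% of those tested. Of these, 761 were higher in Mll1-deleted cultures (3.61% of genes) and 809 were lower (3.84%). The median difference over all genes was -0.03, with 9198 differences above 0 and 11874 below. At least 2-fold changes were found for 223 of the higher and 188 of the lower genes, and at least 4-fold changes for 28 and 16. Intensities of the 3 mice of each genotype did not overlap for 1481 of the 1570 called genes, whereas 19.9% of all genes showed no overlap. With the 6 arrays fitted alone, 809 genes were called, 770 of them among the 1570 with the same direction. Without mouse 858 the count was 2758 of 21072, and without each of the other 5 mice it lay between 830 and 1003. At an unadjusted p under 0.05 by limma there were 3953 genes of 21072.

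**Figure D1:**
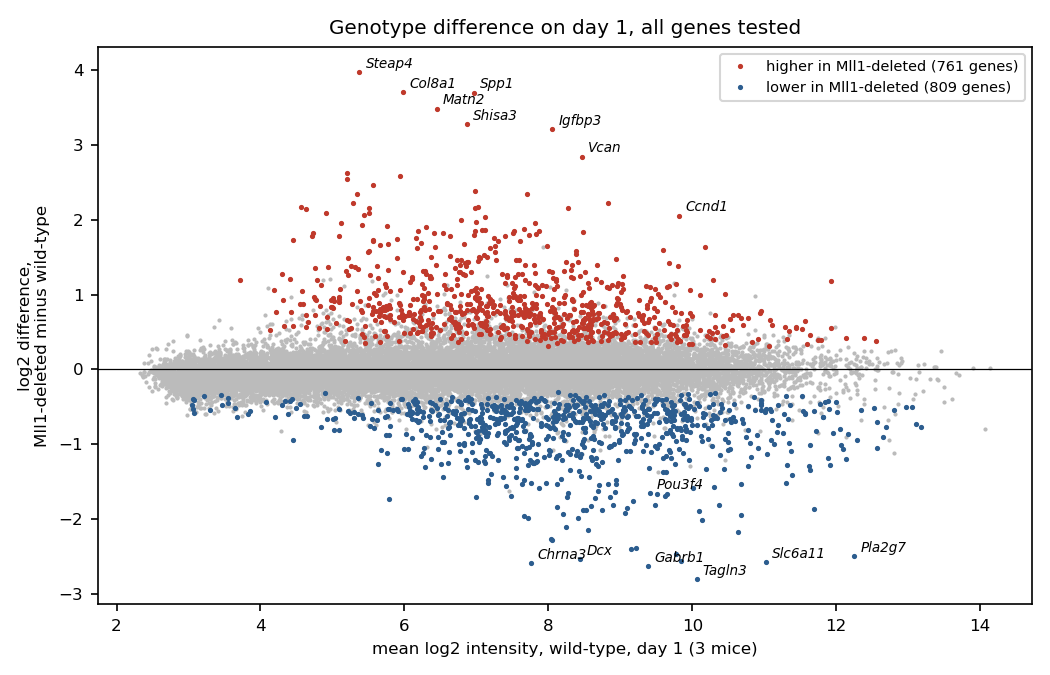
Log2 difference between Mll1-deleted and wild-type cultures on day 1 (vertical axis) against the mean log2 intensity of the 3 wild-type mice (horizontal axis), 1 point per gene. The 761 red points were called higher, the 809 blue points were called lower and grey points were not called; the increases reach 3.98 (Steap4) and the decreases reach -2.80 (Tagln3).

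The 14 largest increases ran up to that of Steap4. This gene, which encodes a membrane metalloreductase, read 1419, 1380 and 141 in Mll1-deleted cultures, against 35.2, 45.0 and 45.0 in wild-type cultures, a difference of 3.98 ± 0.67 (adjusted p = 0.000446). Spp1, which encodes the adhesive glycoprotein osteopontin, read 2600, 2828 and 583 in Mll1-deleted cultures, against 88.4, 162 and 135 in wild-type cultures. In both genes mouse 858 was far below mice 489 and 814 and still above every wild-type mouse. Without mouse 858 the difference was 5.08 for Steap4, where all 3 mice gave 3.98, and 4.44 for Spp1, where all 3 gave 3.70.

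Col8a1, a short-chain collagen, rose by 3.71 ± 0.43, or 4.38 without mouse 858. Matn2, a matrix adaptor protein, rose by 3.49 ± 0.25 and Shisa3, an endoplasmic reticulum protein known to dampen Wnt and FGF receptors, rose by 3.28 ± 0.29. Igfbp3, which binds insulin-like growth factors outside the cell, read 3248, 4586 and 1006 in Mll1-deleted cultures, against 226, 333 and 249 in wild-type cultures. The groups were widely separated, with a difference of 3.21 ± 0.39 (adjusted p = 1.24e-05), which was 3.86 without mouse 858. Vcan, the chondroitin sulfate proteoglycan versican, was nearly level across the mutant mice. It read 2551, 2765 and 2350 in Mll1-deleted cultures, against 360, 319 and 388 in wild-type cultures, a difference of 2.85 ± 0.25 (adjusted p = 2.19e-07). The other genes among the 14 rose by 2.34 to 2.63 and were Mctp1, Gxylt2, Fndc1, Lrrc4c, Pcolce, Serpinb8 and Ecrg4. Fndc1 read 384, 357 and 72.9 in Mll1-deleted cultures, and its difference of 2.55 was 3.33 without mouse 858.

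Of 39 transcription factors of the neurogenic path that were measured, 12 were lower and 1 was higher, and their median difference was -0.39. Set against the wild-type mean, the list's median stood at -0.39 for mouse 489, -0.39 for mouse 814 and -0.20 for mouse 858. Without mouse 858, 16 of the 39 were lower; without any other single mouse, between 7 and 11 were.

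Pou3f4, which encodes the POU factor Brn4 named in the study's title, read 191, 224 and 241 in Mll1-deleted cultures, against 802, 604 and 662 in wild-type cultures. Every mutant mouse lay below every wild-type mouse, the difference was -1.65 ± 0.19 (adjusted p = 7.08e-06), and it ranged from -1.54 to -1.74 as each mouse was left out. Its relatives Pou3f2 (Brn2) and Pou3f3 (Brn1) fell by 0.99 ± 0.17 and by 0.53 ± 0.14. For Pou3f3 the call was lost without any 1 of 5 mice, with adjusted p up to 0.0895. Pax6, needed for dopaminergic periglomerular neurons of the olfactory bulb, fell by 1.03 ± 0.11 (adjusted p = 3.28e-06). The other probe set of Pax6 differed by -0.55, a smaller decrease.

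The Dlx homeobox genes drive the GABAergic interneuron programme. Dlx2 read 307, 309 and 796 in Mll1-deleted cultures, against 1641, 997 and 1230 in wild-type cultures, a difference of -1.58 ± 0.29 (adjusted p = 0.00114). Dlx1 read 260, 254 and 808 in Mll1-deleted cultures, against 1775, 1018 and 1271 in wild-type cultures, a difference of -1.81 ± 0.38. In both, mouse 858 lay between the other mutant mice and the wild-type mice, with no overlap of the groups. Without mouse 858 Dlx1 differed by -2.36 and Dlx2 by -2.04; without mouse 818, which had the highest wild-type values, the adjusted p of Dlx1 lay just outside the threshold.

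Dlx5 read 35.9, 63.7 and 71.7 in Mll1-deleted cultures, against 449, 178 and 229 in wild-type cultures, a difference of -2.27 ± 0.39 (adjusted p = 0.000535). Dlx6, by contrast, differed by -0.39 and was not called. Other lower members were St18 (-1.16), Sp9 (-0.94), Bcl11b (-0.87) and Insm1 (-0.70), and of these 4 St18 alone was called without any single mouse. The member called higher was Etv1, at 0.84 ± 0.24, a call lost without mouse 489, 814, 818 or 870. Pou3f3, Dlx6, St18, Sp9, Bcl11b, Insm1 and Etv1 were picked for mention after their values were seen. Eomes, Neurod1, Neurod4, Neurod6, Nhlh1 and Nhlh2 had mean intensities below the lower quartile of their arrays in both genotypes, which averaged 24.6 in Mll1-deleted cultures and 25.3 in wild-type cultures and is called the floor below.

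**Figure D2:**
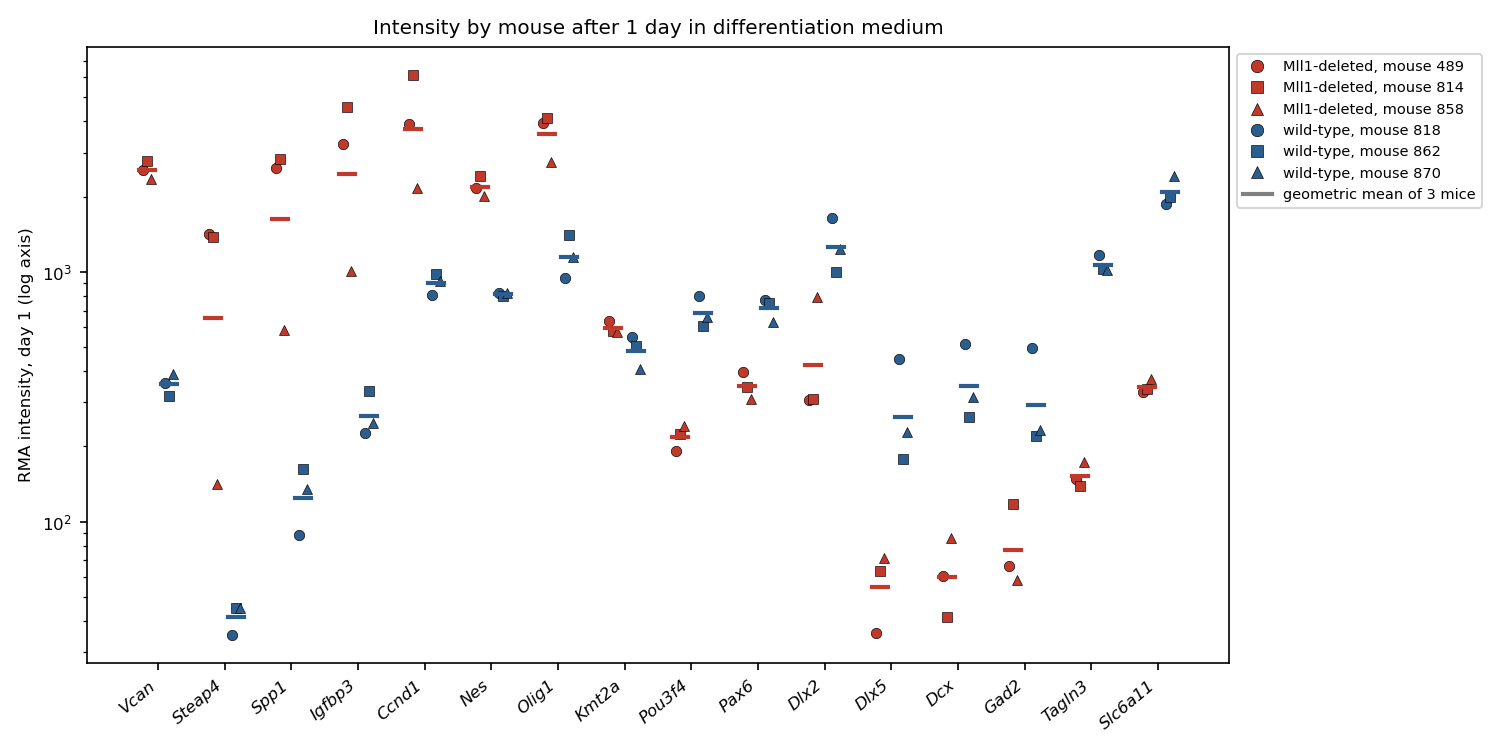
Intensity on day 1 on a log axis for 16 genes, with red symbols for the 3 Mll1-deleted mice to the left of blue symbols for the 3 wild-type mice and a line at each geometric mean. Red symbols lie above blue ones from Vcan to Kmt2a and below them from Pou3f4 to Slc6a11; mouse 858 (red triangles) is closest to the wild-type values for Steap4, Spp1, Igfbp3, Ccnd1 and Dlx2.

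Neuroblast and young neuron genes went both ways, with 7 lower and 4 higher among 33 measured (median -0.30). Tagln3, an actin-binding protein of neurons, had the largest decrease of the 809 called lower. It read 148, 139 and 173 in Mll1-deleted cultures, against 1163, 1023 and 1015 in wild-type cultures, a difference of -2.80 ± 0.24 (adjusted p = 9.45e-08). Dcx, the microtubule protein doublecortin of migrating neuroblasts, read 60.4, 41.5 and 86.4 in Mll1-deleted cultures, against 513, 262 and 314 in wild-type cultures. All 3 mutant mice were far below the wild-type mice, at -2.54 ± 0.53 (adjusted p = 0.00349), although the call was lost without mouse 818 (adjusted p = 0.0557).

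Gad2, an enzyme that makes the transmitter GABA, fell by 1.93 ± 0.35, and Elavl4, a neuronal RNA-binding protein, fell by 1.71 ± 0.30. The receptor for netrin, Dcc, read 43.5, 42.8 and 86.5 in Mll1-deleted cultures, against 413, 155 and 289 in wild-type cultures, a difference of -2.28 ± 0.32. Receptor subunits were also among the 14 largest decreases: Chrna3, a nicotinic acetylcholine receptor subunit, read 32.3, 29.8 and 48.1 in Mll1-deleted cultures, against 300, 169 and 200 in wild-type cultures. Gabrb1, a GABA-A receptor subunit, read 120, 83.5 and 126 in Mll1-deleted cultures, against 635, 684 and 693 in wild-type cultures. Neither gene's groups overlapped, and the differences were -2.59 ± 0.25 and -2.63 ± 0.21.

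Stmn2, a tubulin-binding protein of growing neurites, moved the other way. It read 359, 429 and 163 in Mll1-deleted cultures, against 89.9, 73.0 and 73.8 in wild-type cultures, a difference of 1.90 ± 0.39 (adjusted p = 0.00278). The other higher members were Map1b, Dpysl5 and Ncam1, with differences of 1.14, 0.76 and 0.73. Map1b lost its call without mouse 814 or 862, Dpysl5 without 489, 814, 862 or 870, and Ncam1 without 489, 814 or 862. Tubb3, the class III tubulin of young neurons, was not called (-0.51 ± 0.32); Map1b, Dpysl5 and Tubb3 were picked after their values were seen. Without mouse 858, 11 members were lower and 4 higher, and without each of the others 3 or 4 were lower. The summed intensity of the list was 15916 to 17726 in Mll1-deleted cultures and 15282 to 17953 in wild-type cultures, so the sums overlapped. In RNA of whole cultures, fewer cells of a type and less RNA per cell cannot be told apart.

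Of 22 astrocyte markers, 9 were lower and none was higher, and all 22 differences were below 0, with a median of -0.61. Their summed intensity was 65645 to 97054 in Mll1-deleted cultures, against 118665 to 120653 in wild-type cultures. By mouse, the list's median stood at -0.47 for 489, -0.85 for 814 and -0.33 for 858. Refitted without 1 mouse other than 858, between 3 and 6 of the 22 were called lower, and without mouse 858 there were 13.

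Gja1, the gap junction protein connexin 43, read 5509, 4581 and 5954 in Mll1-deleted cultures, against 9175, 8931 and 8363 in wild-type cultures, a difference of -0.73 ± 0.11 (adjusted p = 0.000156). Id4, an inhibitor of basic helix-loop-helix factors, fell by 1.05 ± 0.19. Aqp4, the water channel of astrocyte endfeet, differed by -0.70 ± 0.16, Ndrg2 by -1.05 ± 0.25 and Clu by -0.52 ± 0.12. The calls of the last 3 were lost without mouse 818 (adjusted p between 0.0610 and 0.0740) and when the 6 arrays were fitted alone. Aqp4 was also lost without mouse 814 or 870, Ndrg2 without 489, 862 or 870, and Clu without 814 (adjusted p = 0.154). Gfap, the intermediate filament that defines many astrocytes, read 4410, 1632 and 4920 in Mll1-deleted cultures, against 7756, 7312 and 6412 in wild-type cultures. The groups did not overlap, and mouse 814 was far below the other mutant mice. Gfap was not called (-1.12 ± 0.40, adjusted p = 0.0961), but was called without mouse 858 (-1.41, adjusted p = 0.0120).

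Further genes among the 14 largest decreases were not on that list. Slc6a11, the GABA transporter GAT-3 of astrocytes, read 330, 340 and 372 in Mll1-deleted cultures, against 1872, 1986 and 2411 in wild-type cultures, a difference of -2.58 ± 0.19 (adjusted p = 2.75e-08). Rlbp1, a retinoid-binding protein of Müller glia, fell by 2.41 ± 0.17. Cldn10, a tight junction protein, fell by 2.57 ± 0.30 and Pla2g7, a secreted phospholipase, fell by 2.50 ± 0.34. Pla2g7 read 720, 462 and 1924 in Mll1-deleted cultures, against 4512, 5431 and 4695 in wild-type cultures, so mouse 858 was again the nearest to wild type. Cyp2d22 fell by 2.46, Fam107a by 2.39, the potassium channel gene Kcnk1 by 2.18 and Sfrp5, a secreted Wnt antagonist, by 2.14. The summed astrocyte markers were lower in the same 3 cultures in which these genes and the neurogenic factors were lower, and their part in those results was not tested.

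Of 21 neural stem cell markers, 3 were higher and 2 were lower, with a median of 0.00. Without mouse 858, 4 were higher and 3 lower. Nes, the intermediate filament nestin, read 2169, 2428 and 2005 in Mll1-deleted cultures, against 824, 798 and 826 in wild-type cultures. The genotypes were clearly separated, at 1.43 ± 0.19 (adjusted p = 3.1e-05). Nr2e1, the orphan receptor Tlx that sustains adult neural stem cells, went down instead. It read 436, 416 and 440 in Mll1-deleted cultures, against 1055, 936 and 822 in wild-type cultures, a difference of -1.11 ± 0.20 (adjusted p = 0.000698). Tnc, the matrix protein tenascin-C, rose by 1.82 ± 0.39. Sox9 (-0.63) and Hes1 (0.69) completed the called members, and both calls were lost when the 6 arrays were fitted alone. Without mouse 489, 814, 862 or 870 neither was called, and Hes1 was also lost without mouse 818. Sox2, named after its value was seen, differed by -0.03 ± 0.09.

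Of 22 oligodendrocyte lineage markers, 3 were higher and none lower, with a median of 0.06, and the 3 were Olig1, Olig2 and Pdgfra. The summed intensity of the 22 was 9161 to 11068 in Mll1-deleted cultures, against 5501 to 6368 in wild-type cultures. That sum includes the 3 called genes, whose values follow, so it is not a measure of the other markers. Of the 22 differences 13 were above 0 and 9 below, and without mouse 858, 3 were higher and 1 lower. Olig1 read 3956, 4125 and 2763 in Mll1-deleted cultures, against 943, 1403 and 1147 in wild-type cultures, a difference of 1.63 ± 0.18 (adjusted p = 4.31e-06). Olig2 read 998, 1123 and 963 in Mll1-deleted cultures, against 391, 553 and 481 in wild-type cultures, a difference of 1.12 ± 0.16 (adjusted p = 6.65e-05). Pdgfra, the growth factor receptor of oligodendrocyte precursors, read 945, 536 and 1334 in Mll1-deleted cultures, against 272, 209 and 201 in wild-type cultures, a difference of 1.96 ± 0.31. For Pdgfra it was mouse 814, not mouse 858, that lay nearest to wild type. The 3 calls held without any single mouse, and Sox10, named after its value was seen, differed by 0.05 ± 0.22.

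Markers of other cell types were examined as well. Ependymal markers had 2 of 13 lower, none higher and a median of -0.50, with a summed intensity of 648 to 898 in Mll1-deleted cultures, against 1031 to 1196 in wild-type cultures. Without mouse 858, 7 of the 13 were lower, and without mouse 814, 818, 862 or 870 only 1 was. Dnah5, a motor of motile cilia, fell by 1.18 ± 0.18 (adjusted p = 0.000179). Microglia markers had no call among 15 by limma, with 2 at an unadjusted p under 0.05 and 1 higher and 1 lower without mouse 858. Among all 21072 genes, 3953 had such a p and 2758 were called without mouse 858. The defining microglia markers Aif1 and Itgam were below the floor in both genotypes. The sum of the 15 was 573 to 622 in Mll1-deleted cultures and 586 to 633 in wild-type cultures. Among 18 endothelial, pericyte and fibroblast markers, Col1a2 and Col3a1 were higher and Pdgfrb was lower; without mouse 858, 4 were higher and 2 lower. Pdgfrb, the receptor of pericytes, read 155, 256 and 134 in Mll1-deleted cultures, against 304, 321 and 477 in wild-type cultures (-1.05 ± 0.24). The members Lum, Emcn and Anpep of that list were below the floor in both genotypes. None of the 3 calls held when the 6 arrays were fitted alone; Pdgfrb was also lost without mouse 489 or 870 and Col3a1 without mouse 818.

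**Figure D3:**
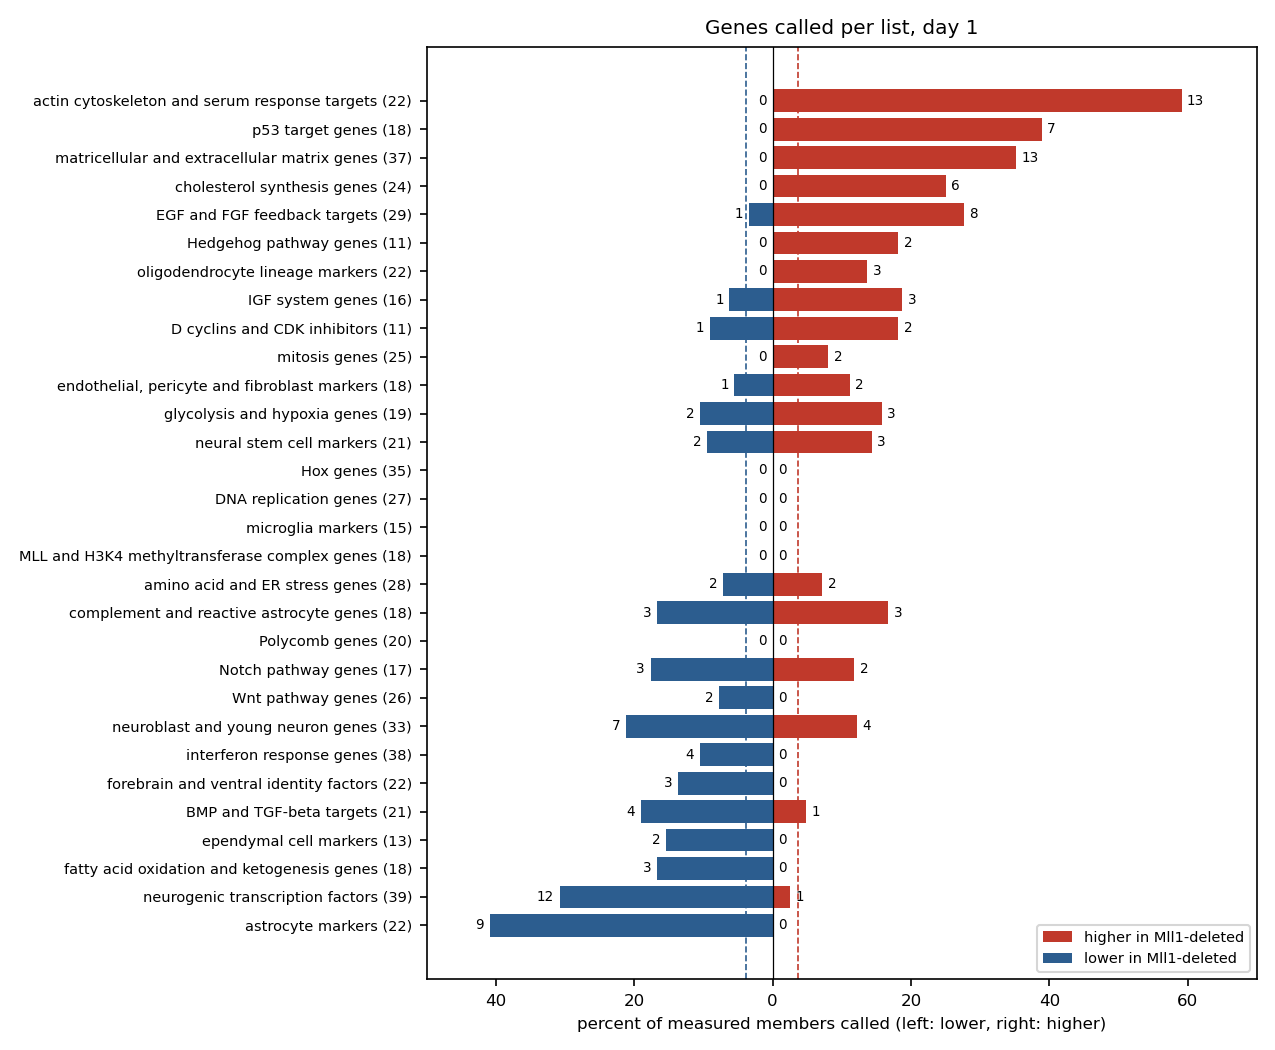
Percent of each list's measured members called lower (blue, to the left) or higher (red, to the right) in Mll1-deleted cultures on day 1, with the number called at each bar's end and the number measured in parentheses. Dashed lines mark 3.84% lower and 3.61% higher over all genes; actin and serum response targets reach 59.1% higher and astrocyte markers reach 40.9% lower.

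Of 37 extracellular matrix genes measured, 13 were higher and none was lower, and the median difference was 0.56. The per-mouse medians were 0.66 in mouse 489, 0.86 in mouse 814 and 0.27 in mouse 858. Without mouse 858, 22 were higher, without each of the other mice 7 to 10 were, and with the 6 arrays alone 8 were. Besides Spp1, Vcan and Tnc, the called members included Lamb1, a laminin chain of basement membranes, at 2.17 ± 0.38, and Ccn3, a matricellular signalling protein, at 1.73 ± 0.19. Ccn3 was level across the mutant mice, at 156, 161 and 156, against 33.8, 51.3 and 61.5 in wild-type cultures. Lgals1, the sugar-binding protein galectin-1, read 10293, 10555 and 6497 in Mll1-deleted cultures, against 3657, 4258 and 3850 in wild-type cultures, a difference of 1.19 ± 0.20 (adjusted p = 0.000449).

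Col1a2, a chain of fibrillar collagen I, read 565, 1292 and 175 in Mll1-deleted cultures, against 158, 100 and 132 in wild-type cultures. Mouse 814 had the highest value, mouse 858 was close to the wild-type mice, and the difference of 1.98 ± 0.58 was 1.30 without mouse 814 and 2.74 without mouse 858. The call of Col1a2 was lost without any 1 of the mice except 858, with adjusted p up to 0.190. The summed intensity of the endothelial, pericyte and fibroblast markers was 1494 to 3630 in Mll1-deleted cultures, against 1464 to 1795 in wild-type cultures, and their part in the matrix genes was not tested.

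Of the 31 lists, genes of the actin cytoskeleton and serum response had the highest share of calls. Of 22 measured, 13 were higher and none was lower, with a median of 0.51. The per-mouse medians were 0.47 in mouse 489, 0.65 in mouse 814 and 0.37 in mouse 858. Fitted on the 6 arrays alone 5 were higher, and without 1 mouse other than 858 between 5 and 8 were. Without mouse 858 the number higher was 13. Tpm1, the actin filament protein tropomyosin 1, read 1327, 2056 and 775 in Mll1-deleted cultures, against 397, 325 and 358 in wild-type cultures, a difference of 1.84 ± 0.26 (adjusted p = 6.98e-05). Vcl, the focal adhesion protein vinculin, read 1306, 1318 and 943 in Mll1-deleted cultures, against 559, 643 and 648 in wild-type cultures, a difference of 0.93 ± 0.14. Tagln2 rose by 0.89 ± 0.16 and Anxa2, a calcium-dependent membrane protein, rose by 1.01 ± 0.18.

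Srf, the serum response factor, is itself known as a target of the factor it encodes. It read 274, 263 and 271 in Mll1-deleted cultures, against 219, 194 and 183 in wild-type cultures, a difference of 0.44 ± 0.12 (adjusted p = 0.0254), a call lost without mouse 489, 862 or 870. Acta2, smooth muscle actin, read 1647, 3893 and 1078 in Mll1-deleted cultures, against 1151, 503 and 1090 in wild-type cultures, which overlapped (1.15 ± 0.41, adjusted p = 0.0999); it was called without mouse 858 (1.56, adjusted p = 0.00973). Both were picked for their promoters. The windows around their start sites run from 250 bases before to 50 after. They are shown to place letters of the serum response element in a gene that was called and in one that was not. They were taken from RefSeq on GRCm38.p6, at chr17:46556113-46556412 for Srf and chr19:34255324-34255623 for Acta2, both on the minus strand and written along the gene, with matches in capitals.
Srf: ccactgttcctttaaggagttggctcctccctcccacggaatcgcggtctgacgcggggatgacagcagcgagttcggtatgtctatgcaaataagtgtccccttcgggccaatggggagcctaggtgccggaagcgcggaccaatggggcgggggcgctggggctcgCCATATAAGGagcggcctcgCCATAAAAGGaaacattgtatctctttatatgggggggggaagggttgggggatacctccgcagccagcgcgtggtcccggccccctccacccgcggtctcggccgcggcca
Acta2: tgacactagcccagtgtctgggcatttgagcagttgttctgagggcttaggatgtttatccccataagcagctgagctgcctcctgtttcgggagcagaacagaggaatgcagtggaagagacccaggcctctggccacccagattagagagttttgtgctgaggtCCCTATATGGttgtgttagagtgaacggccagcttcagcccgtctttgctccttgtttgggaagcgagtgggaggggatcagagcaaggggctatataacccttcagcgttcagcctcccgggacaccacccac

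The letters searched were CCATNNNNGG on both strands. The Srf window holds 2 copies, which begin 82 and 62 bases before the start site, and the Acta2 window holds 1, on the other strand, 84 bases before it. Over the whole list, 19 of 22 genes had a window and 3 held the letters, the third being Acta1. That makes 1 of 12 called genes and 2 of 7 others. The letters cover only part of the forms of the element, so these counts do not say which genes lack it. The windows of Vcl and Cnn2, both called, hold the related letters CCTTATAAGG, and that of Myl9, not called, holds CCTAATAAGG. The search could match neither form. Of the list's 20 windows 15% held a match, against 12.2% of 32851 windows of all genes. A match is a description of the sequence and not evidence of binding, and no match says only that these letters are not in the window.

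Growth factor feedback genes, which respond to EGF and FGF signalling, were higher in 8 of 29 cases and lower in 1, with a median of 0.37. Hbegf, a ligand of the EGF receptor, read 1215, 1009 and 631 in Mll1-deleted cultures, against 312, 373 and 337 in wild-type cultures, a difference of 1.43 ± 0.25 (adjusted p = 0.000685). Phlda1 rose by 1.05 ± 0.15 and Ier3 by 0.70 ± 0.15. Myc, a growth-promoting transcription factor, differed by 0.83 ± 0.17, a call lost without mouse 489 (adjusted p = 0.0518). The member that fell was Il13ra1, a cytokine receptor, by 1.05 ± 0.17. The number higher was 5 with the 6 arrays alone and 3 to 6 without any 1 mouse other than 858. Without mouse 858, 10 were higher and 2 lower.

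Ccnd1, the G1 cyclin D1, read 3917, 6134 and 2175 in Mll1-deleted cultures, against 807, 977 and 920 in wild-type cultures. The genotypes were far apart in every mouse, at 2.06 ± 0.27 (adjusted p = 2.44e-05). The CDK inhibitors split: Cdkn1b (p27) fell by 0.67 ± 0.12 while Cdkn1a (p21) rose by 1.10 ± 0.23. Cdkn1a read 1718, 2558 and 1164 in Mll1-deleted cultures, against 848, 771 and 796 in wild-type cultures. Cdkn1b was even across the mutant mice, at 507, 497 and 509, against 889, 754 and 775 in wild-type cultures.

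Mitosis genes differed among the mutant mice. Their median against the wild-type mean stood at 0.59 for mouse 489, 1.06 for mouse 814 and -0.36 for mouse 858, against 0.35, -0.35 and -0.03 in the wild-type mice. Of 25 measured, 2 were higher (Ccnb2 and Cdc20) and none was lower, and the groups overlapped for both. Without mouse 858 the count was 19, without mouse 818 it was 3, and without mouse 489, 814, 862 or 870 it was 0. DNA replication genes had no call among 27 by limma (median -0.04), with 2 at an unadjusted p under 0.05, and 2 were higher without mouse 858. Over all 21072 genes, 3953 had such a p and 1473 were called higher without mouse 858.

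Targets of the p53 tumour suppressor were higher in 7 of 18 cases and lower in none, and all 18 differences were above 0 (median 0.47). Plk2, a stress-induced kinase, read 560, 789 and 350 in Mll1-deleted cultures, against 214, 192 and 177 in wild-type cultures, a difference of 1.47 ± 0.20 (adjusted p = 3.95e-05). Gadd45a, a growth arrest protein, read 626, 466 and 345 in Mll1-deleted cultures, against 182, 246 and 158 in wild-type cultures, a difference of 1.28 ± 0.20. Cdkn1a, given above, is also on this list. The per-mouse medians were 0.40, 0.83 and 0.23, and 10 members were higher without mouse 858, against 4 to 6 without each other mouse.

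**Figure D4:**
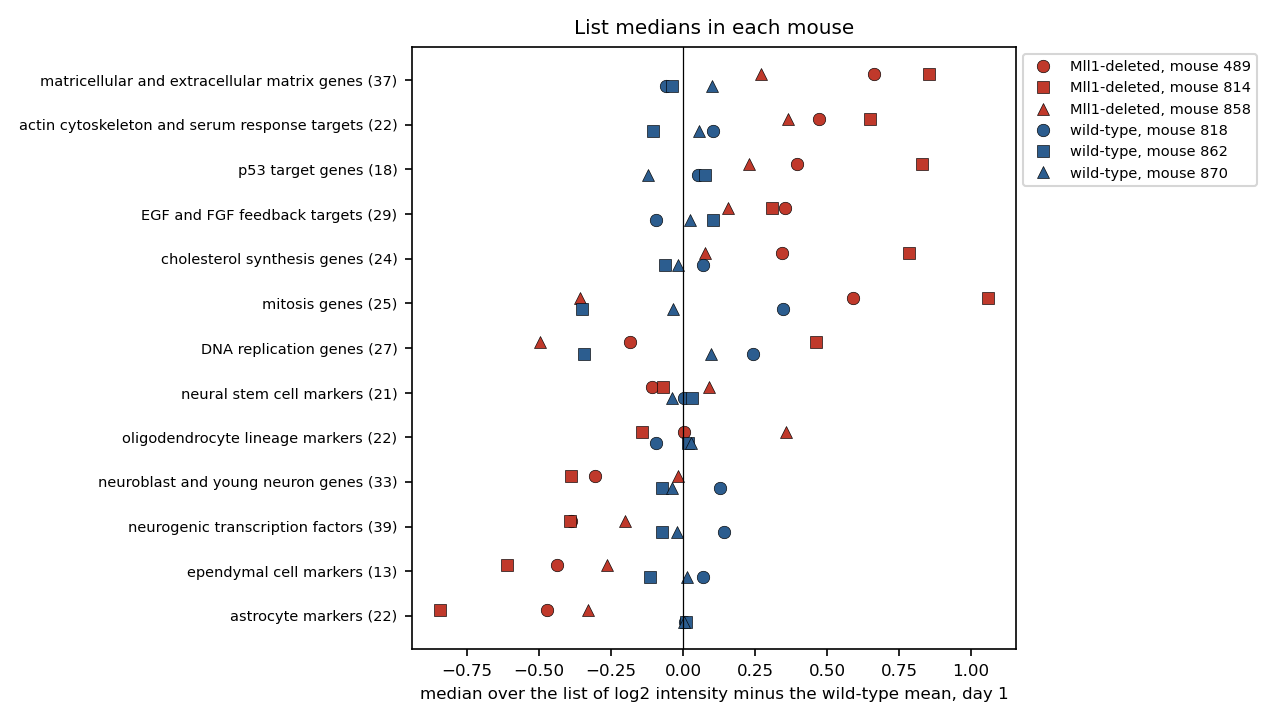
Median over each list of a mouse's log2 intensity minus the mean of the 3 wild-type mice, with red symbols for Mll1-deleted mice above blue symbols for wild-type mice and the number of genes measured in parentheses. Red symbols lie right of all blue ones for matrix, actin, p53 and growth factor genes and left of them for astrocyte, ependymal and neurogenic lists; for mitosis genes they spread from -0.36 (mouse 858) to 1.06 (mouse 814).

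Cholesterol synthesis genes were higher in 6 of 24 cases and lower in none (median 0.31), with per-mouse medians of 0.34, 0.78 and 0.08. Insig1, a brake on sterol synthesis, rose by 0.82 ± 0.16. The number higher was 13 without mouse 858, 1 to 4 without each other mouse and 1 with the 6 arrays alone. Fatty acid oxidation genes had 3 lower and none higher of 18 (median -0.18), with 5 lower without mouse 858 and 0 without mouse 818. Among them was the mitochondrial carrier gene Ucp2 at -1.09 ± 0.25, a call lost without mouse 489, 818 or 870. Of 28 amino acid and stress response genes, 2 were higher and 2 lower. Among them Vldlr, a lipoprotein receptor that also binds reelin, read 670, 684 and 258 in Mll1-deleted cultures, against 125, 125 and 158 in wild-type cultures, a difference of 1.86 ± 0.27 (adjusted p = 8.59e-05). Ndrg1, induced by hypoxia, rose by 1.85 ± 0.30, while the glycolysis and hypoxia list as a whole had 3 higher and 2 lower of 19. Without mouse 489, 814 or 818 that list had 1 higher and 0 lower, and with the 6 arrays alone 1 higher and 2 lower. Of the IGF system, 3 of 16 genes were higher and 1 was lower; beside Igfbp3 these included the growth factor Igf1, which rose by 1.38 ± 0.22. Without mouse 858, 6 were higher and 1 lower; without each other mouse 2 to 4 were higher and 0 lower.

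Among 21 BMP and TGF-beta targets, 1 was higher and 4 were lower (median 0.22). The ligand Bmp6 read 134, 135 and 124 in Mll1-deleted cultures, against 424, 375 and 274 in wild-type cultures, a difference of -1.43 ± 0.25 (adjusted p = 0.000759). The median of that list was above 0 although most of its calls were decreases, and with the 6 arrays alone 3 were higher and 3 lower. Hedgehog genes had 2 of 11 higher, of which Cdon, a co-receptor for Sonic hedgehog, rose by 1.40 ± 0.22; without mouse 858, 3 were higher and 1 lower. Of 26 Wnt genes 2 were lower and none higher, with a median of 0.15 and 19 differences above 0. Without mouse 858, 3 were higher and 2 lower. The called members were decreases: Dkk3, a secreted Dickkopf family member, fell by 1.86 ± 0.24 and the ligand Wnt7a fell by 0.96 ± 0.15. Dkk3 read 107, 132 and 244 in Mll1-deleted cultures, against 669, 430 and 571 in wild-type cultures. Notch pathway genes had 2 higher and 3 lower of 17, and none of those was called with the 6 arrays alone. Without mouse 858, 3 were higher and 4 lower, and without mouse 870 none was called.

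Interferon response genes had 4 lower and none higher of 38 (median -0.17), with 2 to 6 lower as each mouse was left out. Trim30a, an interferon-induced regulator, fell by 0.90 ± 0.14 (adjusted p = 0.000156). Complement and reactive astrocyte genes had 3 higher and 3 lower of 18, with 1 lower without mouse 814, 818, 862 or 870. Ceruloplasmin (Cp), a copper-carrying ferroxidase, read 2514, 1607 and 657 in Mll1-deleted cultures, against 342, 275 and 318 in wild-type cultures, a difference of 2.16 ± 0.38, while complement C4b fell by 1.37 ± 0.27.

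Hox genes, the classical targets of Mll1, gave no call among 35 by limma (median -0.10), with 0 at an unadjusted p under 0.05, and 9 of them were below the floor in both genotypes. The sum of the 35 was 1207 to 1516 in Mll1-deleted cultures and 1255 to 1478 in wild-type cultures. With so little signal above the floor, the lack of calls does not show Hox expression that was present and unchanged. The members with the smallest p were Hoxa5 and Hoxd11, at adjusted p = 0.276 and 0.284. Genes of the H3K4 methyltransferase (MLL) complexes gave none among 18 by limma (median 0.02), with 1 at an unadjusted p under 0.05, and 1 was called without mouse 858. Polycomb genes, whose products oppose Trithorax proteins, gave none among 20 by limma (median -0.03), with 2 at an unadjusted p under 0.05, and 3 were called without mouse 858. For comparison with these 3 lists, 3953 of all 21072 genes had an unadjusted p under 0.05, and 2758 were called without mouse 858. Forebrain identity factors had 3 lower and none higher of 22, and 5 lower and 1 higher without mouse 858. Emx2, a homeobox gene of the forebrain, read 97.1, 126 and 77.2 in Mll1-deleted cultures, against 217, 208 and 175 in wild-type cultures, a difference of -1.02 ± 0.22, and Zic1 and Zic4 differed by -0.86 ± 0.20 and -0.55 ± 0.11. The call of Zic1 was lost without mouse 489, 814 or 818.

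On day 0 the cells were still dividing in growth factor medium. The genotype difference on day 1 was tested against that on day 0 in the same fit. Among 21072 genes, 847 (4.02%) had a genotype difference that changed between these days, of which 348 were among the 1570 genes called on day 1. Of the 1570 genes, 1251 had a difference of the same sign on day 0. Both days came from the same mice, and the matching share over all genes was not computed. The count of shared signs therefore does not show a genotype difference on day 0. The same test against day 2 gave 129 genes (0.612%), or 211 with the mouse as a block, and 61 of them were among the 1570. Of the 129, the difference was higher on day 1 for 81 and lower for 48, against 67 and 61 with all arrays shifted to a common median. The count against day 2 rested on single mice, at 4 without mouse 818, 15 to 47 without mouse 489, 814, 862 or 870, and 441 without mouse 858; the count against day 0 was 323 to 504 without each mouse other than 858 and 2031 without mouse 858. The comparisons share the day 1 cultures, so the values of single genes are set side by side.

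For Pou3f4 and Tagln3 the day 1 difference did not pass the test against day 0 or day 2. In the order of days 0, 1, 2 and 4, the differences of Pou3f4 were -1.36, -1.65, -2.09 and -1.25, and those of Tagln3 were -2.64, -2.80, -2.51 and -1.68. Ccnd1 differed by -0.02, 2.06, 1.47 and 0.46. Olig1 differed by -0.52, 1.63, 1.50 and 1.25, and Dlx5 by -0.12, -2.27, -2.24 and -0.34. For all 3 the change from day 0 to day 1 passed the test. Chrna3 stood out on day 1, at -0.19, -2.59, -0.48 and -0.44, and its day 1 difference passed the test against day 0 and against day 2. Stmn2 differed by 2.72, 1.90, -1.17 and -0.76, and its change between days 1 and 2 passed the test.

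**Figure D5:**
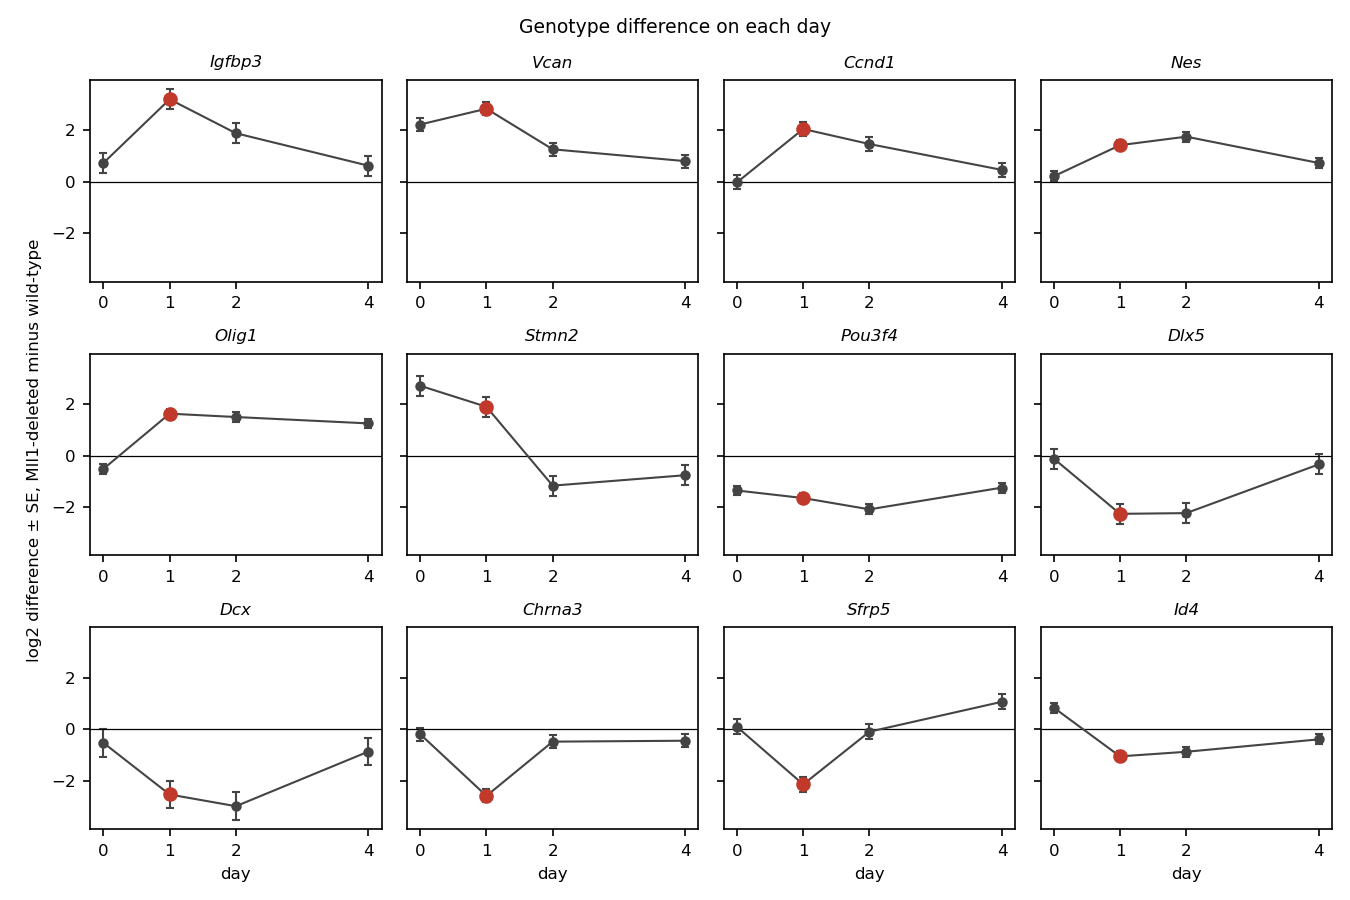
Log2 difference between Mll1-deleted and wild-type cultures (vertical axis, with SE bars from limma) on days 0, 1, 2 and 4 (horizontal axis) for 12 genes, with day 1 in red. Igfbp3, Ccnd1, Nes and Olig1 move up between days 0 and 1 while Dlx5, Chrna3, Sfrp5 and Id4 move down, each past the test; Pou3f4 lies between -2.09 and -1.25 on all 4 days.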

How the data were processed

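The members of this comparison and the gene lists were chosen with earlier results of these data known. The deposited values were intensities per probe set for 24 arrays, made with RMA in Affymetrix Power Tools, with mm9 named as the genome build, per the submitters' processing notes. The values, from 3.48 to 30298, show that the deposited intensity is on a linear scale, so log2 was taken here; no detection measure was used. Of 28350 probe sets, 22232 had 1 gene symbol, 2980 had several and 3138 had none. Symbols were updated through RefSeq for 2126 probe sets, and each gene took its brightest probe set by mean, giving 21072 genes.

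A limma fit of 8 group means (limma 3.58.1, statmod 1.5.0, R 4.3.3) used all 24 arrays and treated mouse as random (correlation 0.165), with Benjamini-Hochberg adjustment over all genes. The day 1 difference, and its change from days 0 and 2, were contrasts of that fit. Mouse numbers in the labels tie the 4 days of a mouse together. Deviations from the group means correlated within a mouse at a median of 0.310 in Mll1-deleted and 0.216 in wild-type cultures. Between mice the medians were -0.143 and -0.123. Deviations from a shared mean offset each other among its mice, so these negative values follow from the centring and are no separate baseline. Named genes were the 14 largest non-overlapping called changes in each direction, from each list at most 5 called members, taken by smallest p (2 where none was called), and a few genes fixed by name, Kmt2a and Pou3f4 among them; others are said to be picked after their values were seen, and some genes are not reported here. Alternatives changed the normalization, offset, dim-gene filter, probe sets, array weights, prior and mouse term, used the 6 arrays alone, or left out each mouse. In data simulated for day 1 with 50 changed genes per fold among 21072, 58% of 1.5-fold and 96% of 2-fold changes were recovered, and 8 of 140 calls were false. The simulation gave each gene the same spread on every array and changed far fewer genes than were called on day 1. Its rates therefore need not hold for these data. Promoter windows came from RefSeq on GRCm38.p6, and no probe coordinates were used. Tables and figures used Python 3.11.15, numpy 2.4.6, pandas 2.3.3 and matplotlib 3.10.9.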

Additional observations from a re-analysis of the deposited data

Results flagged for a closer look

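For the genes below, limma's test of the genotype difference on day 1 against that on another day passed the threshold. The counts of such genes, against day 0 and against day 2, shrank when any single mouse other than 858 was left out. Which of the genes below kept their call then is not reported here. Each value is the day 1 difference (Mll1-deleted minus wild-type, log2) minus the difference on the other day, so a positive value means a higher difference on day 1.

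Against day 0, genes with a higher difference on day 1 included Igfbp3 at 2.48, Shisa3 at 1.41, Matn2 at 1.39 and Vldlr at 1.77. The oligodendrocyte factors Olig1 and Olig2 stood at 2.15 and 1.94, the stem cell filament gene Nes at 1.21 and the Hedgehog co-receptor Cdon at 1.29. Of cell cycle and growth factor genes, Ccnd1 was at 2.08, Ccnb2 at 1.47, Ier3 at 2.27, Phlda1 at 1.02 and Myc at 0.85. The remaining increases were Plk2 at 1.06, Insig1 at 1.05, Pdk1 at 1.07, Ddit4 at 0.86, Eno1 at 0.53 and Tagln2 at 0.90.

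Genes with a lower difference on day 1 than on day 0 included the neuronal genes Chrna3 at -2.40, Dcc at -2.23 and Dlx5 at -2.15. Astrocyte and ependymal genes were Id4 at -1.89, Gja1 at -1.0, Clu at -0.87 and Dnah5 at -0.88. Signalling genes were Sfrp5 at -2.24, Pdgfrb at -1.66, Bmp6 at -1.38, Smad9 at -1.03, Nog at -0.81, Il13ra1 at -0.92 and Igfbp5 at -1.71. Fam107a was at -2.54 and Zic4 at -0.58, and the interferon response genes Trim30a, Irf7 and Cmpk2 were at -0.86, -0.67 and -0.66.

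Against day 2, the difference on day 1 was higher for Stmn2 at 3.07, Vcan at 1.58 and Gadd45a at 1.12. It was lower for Chrna3 at -2.11, Sfrp5 at -2.05, Igfbp5 at -1.19, Nrarp at -1.09 and Ddit4 at -0.65.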

How the results depend on the processing

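The count of 1570 genes on day 1 was 3675 with estimated array weights and 809 with the 6 arrays alone, and between 830 and 2758 as each mouse was left out. The count of 847 against day 0 was 2273 with array weights, 513 with no mouse term and 323 to 2031 without 1 mouse. The count of 129 against day 2 was 616 with array weights, 29 with no mouse term, 211 with the mouse as a replicate block and 4 to 441 without 1 mouse. The highest of each range came without mouse 858, whose day 1 array weight was 0.361, against 2.65 for mouse 489; the cause was not tested. With the block the count against day 0 was 1031. The balance of directions was not stable: on day 1, 761 were higher and 809 lower, but 1877 and 1798 with array weights, 433 and 402 without mouse 814, 476 and 463 without 818 and 1473 and 1285 without 858. Against day 2 it was 81 and 48, but 6 and 9 without mouse 489. Of 121 called genes that the naming rule gave, 75 were called under every setting; 36 were lost with the 6 arrays alone, 1 without mouse 858 and 26 to 33 without each other mouse. With 3 mice a group, changes under 1.5-fold were seldom recovered in simulated data (10% at 1.25-fold).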

Other observations

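Genes ranked 15 to 50 by size in each direction, of those called with no overlap between genotypes, included receptors and enzymes not described above; those given here were picked after their values were seen. Ahr, the aryl hydrocarbon receptor, read 496, 465 and 786 in Mll1-deleted cultures, against 128, 124 and 126 in wild-type cultures, a difference of 2.17 ± 0.21. Elmo1, a regulator of Rac signalling, was even across the mutant mice at 208, 178 and 194, against 45.6, 49.9 and 41.3 in wild-type cultures (2.09 ± 0.17). Penk, which encodes the precursor of enkephalins, read 168, 249 and 49.6 in Mll1-deleted cultures, against 23.8, 30.8 and 36.9 in wild-type cultures, with mouse 858 nearest to wild type. Sez6, Crym and the endothelial lipase gene Lipg rose by 2.22, 1.87 and 1.87.

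Among decreases, the dopamine receptor gene Drd3 read 48.7, 41.5 and 72.6 in Mll1-deleted cultures, against 260, 161 and 219 in wild-type cultures (-1.99 ± 0.21), with differences of -0.54, -0.63 and -0.37 on days 0, 2 and 4. Gria1, an AMPA-type glutamate receptor subunit, fell by 1.99 ± 0.24 and Igfbpl1 fell by 1.77 ± 0.14. Slc6a9, the glycine transporter GlyT1, fell by 1.69 ± 0.15, and Cbs, an enzyme of homocysteine metabolism, fell by 1.67 ± 0.20. Ntsr2, a neurotensin receptor of astrocytes, read 713, 471 and 2208 in Mll1-deleted cultures, against 2671, 3426 and 3957 in wild-type cultures.

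Xist in mouse 858 read 13.3 to 24.4 over the 4 days, against 369 to 1468 in the other 5 mice. Over 534 X-linked genes the median log2 difference from the wild-type mean on day 1 stood at 0.07 for mouse 489, 0.07 for mouse 814 and 0.02 for mouse 858. Over 14840 autosomal genes it stood at -0.02, -0.03 and 0.01. Both sets left out genes below the lower quartile of mean intensity.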
